A study of Arabidopsis thaliana with 36 samples.

Results

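The transcripts described here are 92 probe sets that antimycin A raised in wild type Arabidopsis leaves and raised much less in rao2 and anac017-1, 2 lines altered in the transcription factor ANAC017. They were taken from 22746 probe sets of the Affymetrix ATH1 array, a 1-colour array on which each probe set measures a transcript by the brightness of its probes. A member had a wild type mean under antimycin A at least 2 above the water mean in log2 intensity (a 4-fold difference or more), with all 3 antimycin A arrays above all 3 water arrays. Its change in rao2 and its change in anac017-1 each had to be below 50% of the wild type change. Of the 22746 probe sets, 948 (4.17%) met the wild type part, and 100 of these 948 (10.5%) also met the part on the mutants. A list of loci and gene families was then left out, which removed 8 of the 100 (AT5G37670, AT5G09570, NDB2, GSTU22, GSTU25, AT2G21640, NDB4 and AT2G32020) and left 92. The gene table gave exactly 1 gene for 46 members, several for 1 and no entry for 45, so 46 are named by gene and the others by probe set.

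The study used 36 arrays of green leaf RNA from 14-day-old seedlings of ecotype Columbia, grown on Gamborg B5 medium with 3% sucrose, and asked how far the responses to mitochondrial and oxidative stress depend on ANAC017. The mutant lines were rao2 (labelled an EMS mutant, so a line from chemical mutagenesis), anac017-1 (labelled a T-DNA knock-out) and anac017-2 (labelled gain of function), and they were set beside wild type, labelled Col:LUC. Seedlings of each line were sprayed with 50 µM antimycin A, 20 mM hydrogen peroxide or water, and tissue was collected 3 h later from 3 samples of each of the 12 combinations. Only wild type carries the Col:LUC label, and the labels do not say whether the mutants hold the same luciferase reporter, whether rao2 was backcrossed or whether replicates came from separate plants. The p-values below therefore measure the spread between these samples, and the number of arrays limits their precision. In RNA from whole green tissue, fewer cells of a type and less RNA per cell cannot be told apart.

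Antimycin A blocks electron flow through respiratory complex III, and plants answer a stalled respiratory chain by changing transcription in the nucleus, a route called mitochondrial retrograde signalling. ANAC017 is a NAC transcription factor held in the endoplasmic reticulum membrane. On mitochondrial stress it is released, moves to the nucleus and takes part in inducing the alternative oxidase and other genes of the mitochondrial dysfunction stimulon. The rao mutants are known from a search for regulators of alternative oxidase expression. The ANAC017 transcript itself had no probe set in the gene table and was not analysed here.

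Some arrays differed from the others of their group in ways that bear on the members. The rao2 antimycin A replicate 1 held the highest of the 3 rao2 values for 67 of the 92 members, and lay a median of 0.89 in log2 above the mean of the other rao2 antimycin A arrays. Its members stood at a median of 25.8% of the wild type antimycin A mean on the linear scale, against 11.4% on replicate 2 and 18% on replicate 3. Relative to the wild type mean, the lowest member on it was at -4.15 in log2, whereas the lowest on replicates 2 and 3 were at -8.98 and -8.82. Among the 848 other induced probe sets the same array was not the high one, with the highest value in 109 and the lowest in 373. The rao2 antimycin A replicate 2 was the lowest of its group for 66 members, with a median gap of -0.86 to the other arrays. It was the lowest for 415 of the 848. Wild type antimycin A replicate 2, an array used by the rule, was the lowest for 65 members, with a median gap of -0.48. Among the 848 it was the lowest for 201. Why these arrays differ was not tested. Under hydrogen peroxide, wild type replicate 1 was the highest of its group for 50 of 92 members and replicate 3 the lowest for 60.

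The anac017-2 antimycin A arrays stood apart in another way. Probe sets that antimycin A induced in wild type mostly changed little in this line, whether or not they were members. Among the 848 induced probe sets that were not weaker in both mutants, the median antimycin A change was 0.40 in anac017-2, beside 2.84 in rao2, 2.93 in anac017-1 and 2.95 in wild type. A low antimycin A level of a member in anac017-2 is therefore not particular to the members.

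Between arrays of a group the correlation of log2 values ran from 0.983 to 0.997, and array medians ran from 77.7 to 83.6 in linear intensity. The difference between 3′ and 5′ control probe sets, a sign of RNA quality, is given as a mean per group in log2. Under antimycin A it was 3.38 in rao2, 3.48 in anac017-1, 3.16 in anac017-2 and 3.10 in wild type. Under hydrogen peroxide it was 3.34 in rao2, 3.25 in anac017-1, 3.11 in anac017-2 and 3.17 in wild type, and under water 3.22, 3.27, 3.15 and 3.14 in the same order of lines. The group mean was thus higher in rao2 and anac017-1 than in wild type under every spray. Under antimycin A the standard deviation was 0.17 in rao2, 0.2 in anac017-1 and 0.07 in wild type, each smaller than the gaps there. Under hydrogen peroxide it was 0.16 in rao2, close to its gap, 0.03 in anac017-1 and 0.02 in wild type. In wild type under water it was 0.17, so the water gaps were within the spread. The part of these control values in the results was not tested. Of 18 green leaf markers only RCA, Rubisco activase, had a probe set in the gene table, and it was above the low range on all 36 arrays. Of 15 root markers 3 had one, of which 2 were low on all arrays, and their summed intensity lay between 13.0 and 31.8 over the 12 groups. Of 5 guard cell markers 3 had a probe set, SPCH, MUTE and FMA, regulators of stomatal development. Only 1 of these 3 was above the low range on all 36 arrays. Their summed intensity was 88.3 to 102 in rao2, 55.6 to 81.2 in anac017-1, 102.3 to 128.6 in anac017-2 and 59.1 to 78.2 in wild type under antimycin A. Under hydrogen peroxide it was 103.8 to 145.8 in rao2, 69.6 to 83.6 in anac017-1, 87.6 to 108.6 in anac017-2 and 76.4 to 116.6 in wild type. Under water it was 117.3 to 136.7 in rao2, 99.7 to 135.8 in anac017-1, 111.7 to 142.7 in anac017-2 and 121.8 to 154.1 in wild type. The part of this difference in the results was not tested. None of 8 flower and seed markers had a probe set in the table. Values that did not exceed the array's own 25% quantile, which was 2.45 to 2.56 in log2, are called low here and taken as not above background.

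In the mutants the members kept a small antimycin A response. The median log2 change of the 92 members was 0.87 in rao2, 0.62 in anac017-1 and 3.42 in wild type. The members were chosen by these wild type, rao2 and anac017-1 changes, which are therefore given as a description. In anac017-2, whose arrays the rule did not use, the median was 0.28, beside a median of 0 over all 22746 probe sets. Without rao2 replicate 1 the rao2 median was 0.44, and without replicate 2 it was 1.21. The change was below 0 for 11 members in rao2, or 24 without its replicate 1, and for 20 in anac017-1. In anac017-1 the retained share of the wild type change was smaller than in rao2 for 63 members and larger for 29. Which line kept the smaller share turned with rao2 replicate 1, since without it the counts were 33 smaller and 59 larger. They were 81 and 11 without replicate 2, and 59 and 33 without replicate 3.

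The level under antimycin A was lower on all 3 mutant arrays than on all 3 wild type arrays for 74 members in rao2 (8.59% of all probe sets), 82 in anac017-1 (14.8%) and 89 in anac017-2 (16.9%). The rule favours this pattern, so nothing is read from the first 2 counts, and the wild type antimycin A arrays of the last were also used by the rule. Low values were common outside wild type antimycin A. All 3 arrays were low for 3 members in rao2, 8 in anac017-1, 11 in anac017-2 and 0 in wild type under antimycin A, and for 16, 19, 15 and 19 under water in the same order of lines.

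**Figure D1:**
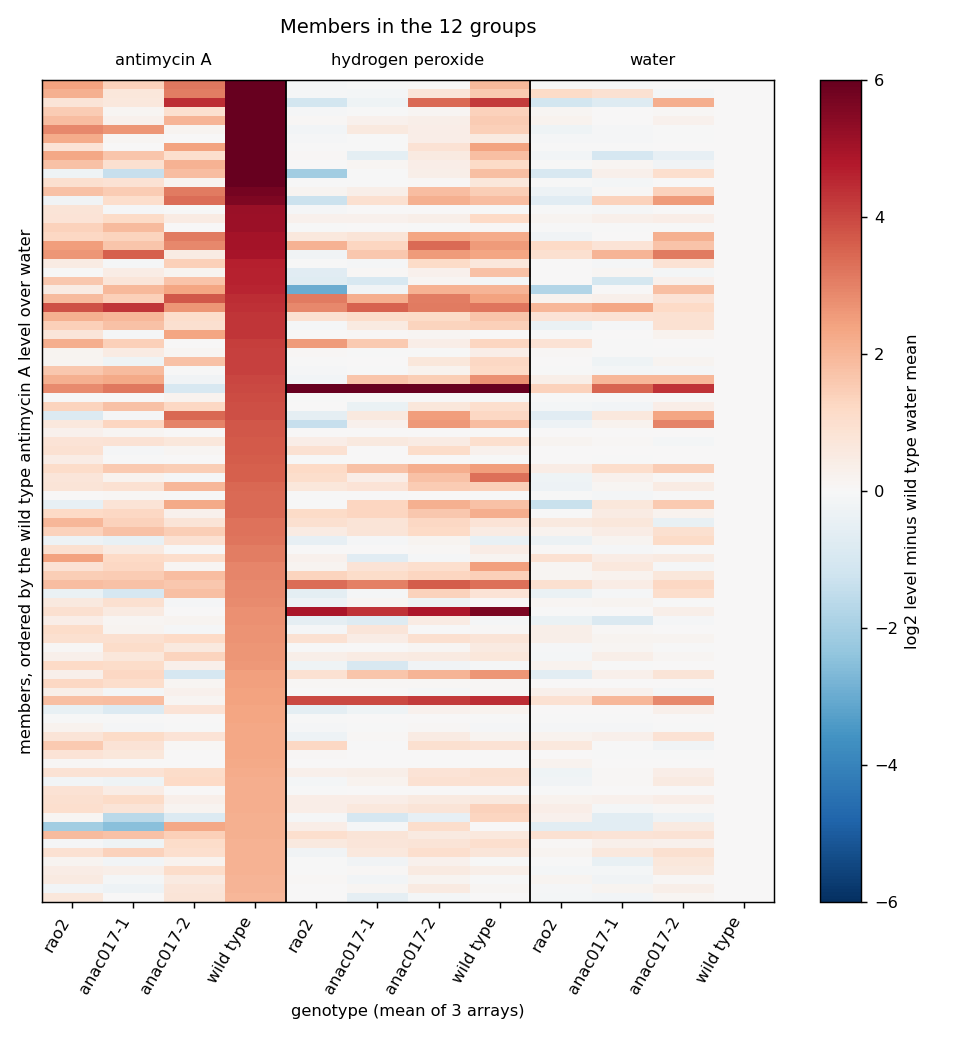
Each row is 1 of the 92 members and each column the mean of 3 arrays of a line and spray, coloured by log2 level minus the wild type water mean (colours end at 6 in both directions). The wild type antimycin A column is red throughout, as the rule requires, with a median of 3.42, and the rao2, anac017-1 and anac017-2 columns beside it are paler. A few rows are red in all hydrogen peroxide columns, among them 250351_at and AT1G54050.

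Enzymes of detoxification and secondary metabolism were among the members. These families attach sugars or acyl groups to small molecules or oxidise them. AT5G42830, an acyltransferase of the HXXXD type, had antimycin A levels of 9.27, 4.17 and 7.23 in rao2, 6.13, 5.71 and 6.93 in anac017-1 and 11.15, 10.93 and 11.1 in wild type, with 4.76, 4.3 and 4.71 in wild type water. No mutant array reached the wild type antimycin A range, and the rao2 arrays lay far apart. CYP84A4, a cytochrome P450, was at 4.08, 2.37 and 2.38 in rao2, 3.97, 2.44 and 3.35 in anac017-1 and 7.49, 6.89 and 7.33 in wild type under antimycin A. Since all 3 wild type water arrays were low (1.97, 2.38 and 1.94), its wild type change is given as at least 4.73. The UDP-glycosyltransferases UGT76E12 and UGT73C1 changed by 4.02 and 3.73 in wild type, and are described further below.

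Other members have roles in signalling and protein turnover. AT1G74870, a RING-type zinc finger protein, was at 9.37, 3.53 and 3.01 in rao2, 4.31, 4.51 and 3.68 in anac017-1 and 11.88, 11.5 and 11.79 in wild type under antimycin A, with 5.97, 5.01 and 5.7 in wild type water. Apart from rao2 replicate 1, the rao2 and anac017-1 arrays lay below every wild type water array. Its change was 0.68 in rao2, or -1.36 without replicate 1, -1.68 in anac017-1 and 6.17 in wild type. The protein kinase gene AT1G71530 was at 5.54, 2.96 and 2.83 in rao2, 2.95, 3.42 and 4.58 in anac017-1 and 8.51, 8.36 and 9.42 in wild type under antimycin A, with 2.84, 2.81 and 2.73 in wild type water. Among the others of this kind, the wild type change was 4.29 for the protein kinase gene AT1G69790, 3.40 for the subtilisin-like protease SBT3.5 and 2.88 for the RING protein AT1G14200.

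In primary metabolism, AT4G17260, a lactate dehydrogenase of the enzyme family that reduces pyruvate and re-oxidises NADH, was at 10.37, 7.29 and 7.81 in rao2, 7.94, 8.17 and 8.08 in anac017-1 and 12.49, 12.27 and 12.5 in wild type under antimycin A. Its wild type water values were 8.06, 8.42 and 8.43, so both mutants lay near that level save for rao2 replicate 1. The change was 0.17 in rao2, -0.77 without replicate 1, 0.03 in anac017-1 and 4.11 in wild type. AT5G56350, a pyruvate kinase, an enzyme of the last step of glycolysis, was at 10.39, 9.43 and 9.54 in rao2, 9.69, 9.86 and 9.64 in anac017-1 and 12.11, 12.01 and 12.4 in wild type under antimycin A, with 9.88, 10.07 and 9.95 in wild type water. All 3 anac017-1 arrays lay below all wild type water arrays.

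Some of the remaining members have roles in redox chemistry. The wild type change was 3.40 for AT1G24095, a thiol-disulphide oxidoreductase, 3.05 for the glutaredoxin AT3G62960, 2.32 for the berberine bridge enzyme-like AT1G26410 and 2.31 for the dioxygenase AT5G59530. Cell wall and defence members were AT5G64790, a glycosyl hydrolase of family 17, AT5G05190 (EDR4, linked to disease resistance) and the class V chitinase ChiC, which changed by at least 4.47, by 3.89 and by 2.62 in wild type. AT5G64790 was at 4.21, 1.9 and 3.6 in rao2, 2.23, 4.24 and 4.78 in anac017-1 and 7.61, 6.55 and 6.81 in wild type under antimycin A. All 3 of its wild type water arrays (1.89, 1.83 and 1.83) were low. The AAA-type ATPases AT2G18190 and AT1G43910 changed by at least 4.35 and by 2.74. AT2G18190 was at 3.7, 2.18 and 2.26 in rao2, 2.13, 2.15 and 2.17 in anac017-1 and 7.02, 6.46 and 7.12 in wild type, with 2.15, 2.23 and 2.23 in wild type water.

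The widest wild type changes belonged to probe sets whose role is not given here. The largest was that of 260932_s_at, 8.97, with 9.57, 2.51 and 2.66 in rao2, 3.86, 2.55 and 5.29 in anac017-1 and 11.8, 11.2 and 11.45 in wild type under antimycin A against 2.51, 2.51 and 2.52 in wild type water. Replicate 1 of rao2 was thus far above the other rao2 arrays, which stood near wild type water. The probe set 245173_at behaved alike, at 8.44, 2.25 and 2.29 in rao2, 4.2, 4.1 and 4.2 in anac017-1 and 11.49, 10.52 and 10.97 in wild type, with 2.97, 3.88 and 3.76 in wild type water. AT2G20720 was at 8.87, 4.06 and 4.07 in rao2, 3.8, 4.05 and 4.29 in anac017-1 and 11.09, 10.2 and 10.7 in wild type, with 3.81, 3.8 and 3.8 in wild type water. For all of these, every anac017-1 and rao2 array lay below every wild type antimycin A array.

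Other members of this size differed in how much the mutants kept. AT1G03660 was at 7.23, 2.96 and 3.39 in rao2, 3.33, 3.72 and 4.08 in anac017-1 and 9.5, 8.38 and 8.99 in wild type, with 2.9, 3.02 and 2.35 in wild type water. AT5G40690 was at 9.29, 5.95 and 6.7 in rao2, 6.56, 6.91 and 7.75 in anac017-1 and 11.48, 11.12 and 11.41 in wild type, with 6.21, 5.65 and 4.86 in wild type water. The probe set 259439_at kept most, with 7.26, 3.86 and 5.61 in rao2, 4.6, 6.1 and 5.44 in anac017-1 and 9.66, 9.21 and 9.76 in wild type, against 2.67, 2.71 and 2.75 in wild type water. Its change was 3.15 in rao2, 2.73 in anac017-1 and 6.83 in wild type. By contrast 258451_at, at 7.49, 3.23 and 3.78 in rao2, 2.99, 2.64 and 2.57 in anac017-1 and 9.76, 8.95 and 9.52 in wild type, with 2.62, 2.58 and 2.58 in wild type water, changed by 0.18 in anac017-1.

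For the members that were low on all wild type water arrays only a lower bound of the change can be given. It was 7.83 for 257774_at, which read 8.39, 2.13 and 2.25 in rao2, 2.14, 2.1 and 4.22 in anac017-1 and 10.9, 10.27 and 9.87 in wild type under antimycin A, beside 2.25, 2.11 and 2.06 in wild type water. It was 7.11 for 256762_at, with 6.8, 2.37 and 2.39 in rao2, 2.34, 2.43 and 2.63 in anac017-1 and 9.69, 9.41 and 9.78 in wild type, beside 2.25, 2.37 and 2.37 in wild type water. For AT4G16680 it was 6.36, with 4.73, 2.29 and 2.33 in rao2, 2.32, 2.26 and 2.29 in anac017-1 and 8.58, 8.46 and 9.59 in wild type, beside 2.27, 2.28 and 2.29 in wild type water. In rao2, only replicate 1 of these 3 members was well above the wild type water values. A wild type response with low values nearly everywhere else was seen in 258216_at, which averaged 6.25 in wild type under antimycin A and was low on all 3 arrays of every other group except anac017-2 antimycin A, where 2 were.

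**Figure D2:**
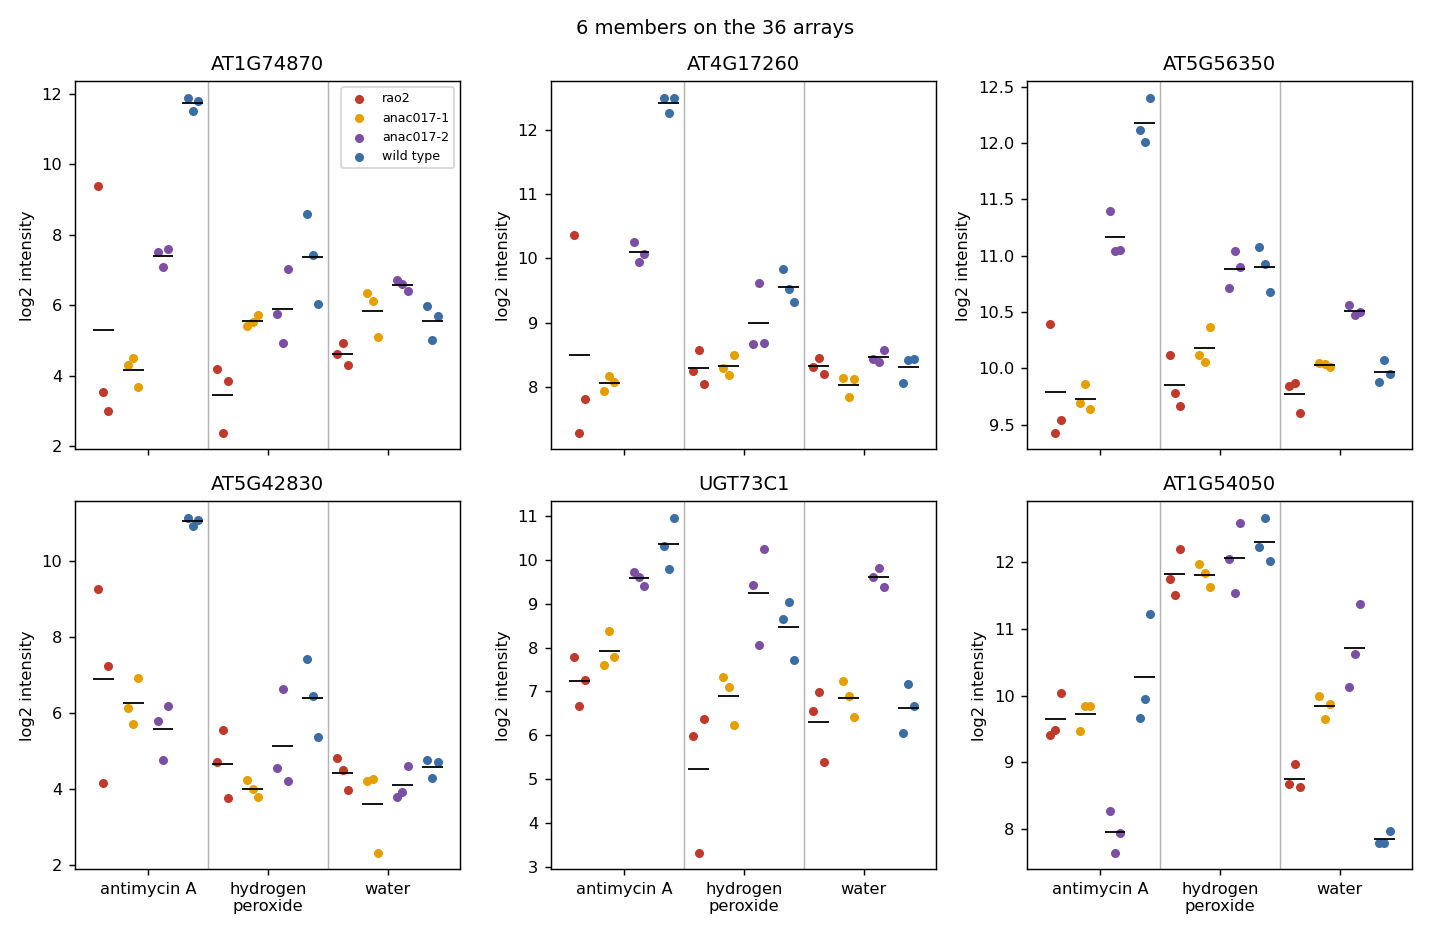
Log2 intensity of 6 members on each array, by spray and line; points are arrays in replicate order and bars are means of 3. AT1G74870, AT4G17260, AT5G56350 and AT5G42830 stood highest in wild type under antimycin A, with the first rao2 point above the other rao2 points, while UGT73C1 was high in anac017-2 under every spray and AT1G54050 was highest under hydrogen peroxide.

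**Figure D3:**
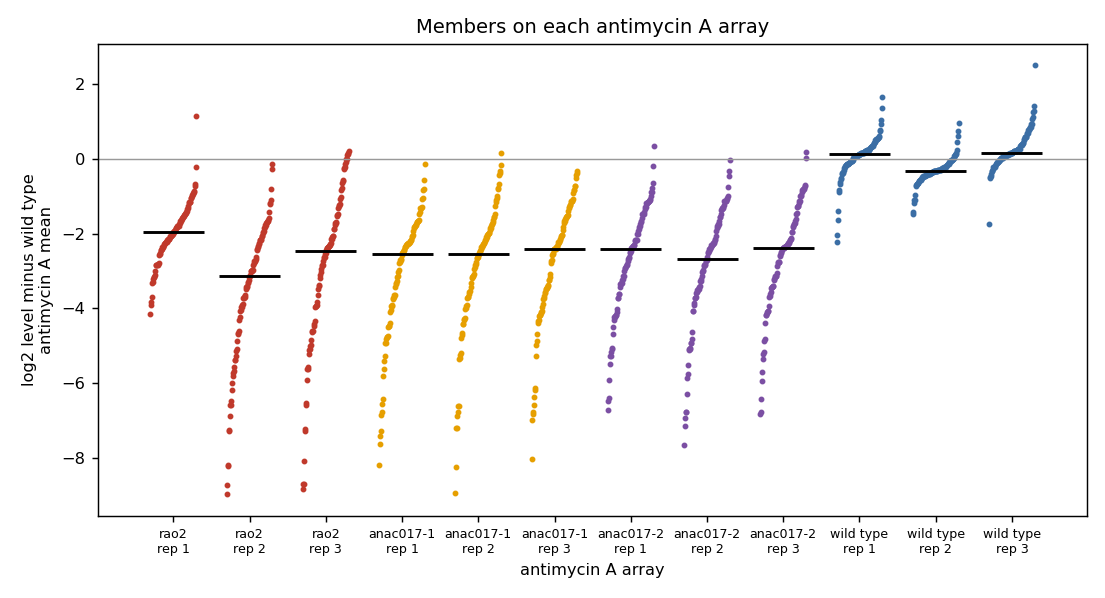
For each antimycin A array the 92 members are ordered by their log2 level minus the wild type antimycin A mean, with a bar at the median. The medians were -1.95, -3.14 and -2.47 on the rao2 arrays, -2.55, -2.55 and -2.41 in anac017-1, -2.41, -2.67 and -2.36 in anac017-2, and 0.13, -0.32 and 0.17 in wild type, and the lower tail is shortest on rao2 replicate 1 among the mutant arrays.

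A few members had nearly the wild type level under antimycin A in the mutants, beside a higher level under water. The antimycin A means differed from wild type by less than 1 in 5 members in rao2 and 5 in anac017-1. AT1G54050, a small heat shock protein of the class that binds unfolding proteins, was at 9.41, 9.48 and 10.04 in rao2, 9.47, 9.85 and 9.85 in anac017-1 and 9.67, 9.95 and 11.22 in wild type under antimycin A, so the lines overlapped. Under water it was at 8.67, 8.97 and 8.63 in rao2, 9.99, 9.65 and 9.88 in anac017-1, 10.13, 10.63 and 11.37 in anac017-2 and 7.8, 7.79 and 7.97 in wild type, with every mutant array above every wild type array. The probe set 250351_at likewise had a water mean of 7.17 in rao2, 9.26 in anac017-1, 10.12 in anac017-2 and 5.77 in wild type. For AT2G01400 the antimycin A mean was 5.64 in rao2, 5.49 in anac017-1 and 5.84 in wild type, and for 247957_at it was 7.06, 7.53 and 7.64 in the same lines.

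Near the cut-offs, members and non-members had like values. Just inside the wild type limit of 2 were 255794_at, AT4G17080 and AT3G22850, with changes of 2.01, 2.04 and 2.05, and just outside were 252515_at, 249083_at and 265245_at, with 2.00 (below the limit before rounding), 1.99 and 1.98. The share of the wild type change kept in rao2 was 0.5 (before rounding just below), 0.492 and 0.489 for 263231_at, 260581_at and AT3G62960, which are members. It was 0.516, 0.519 and 0.53 for 264415_at, 247435_at and 255342_at, which are not. In anac017-1 it was 0.493, 0.489 and 0.462 for the members AT5G05190, 246984_at and AT1G14200, and 0.509, 0.529 and 0.533 for UGT73C7, 262518_at and AT1G54020 outside.

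The anac017-2 arrays took no part in the choice of members, so antimycin A against water in this line was tested. Antimycin A raised 18 of the 92 members (19.6%, against 6.9% of all 22746 probe sets) and lowered 5 (5.43%, against 8.39%). Here and below, a call is an adjusted p under 0.05 by limma with Benjamini-Hochberg adjustment over all probe sets, and ± is the standard error of that fit. Of the 848 other induced probe sets 158 (18.6%) were raised and 30 (3.54%) lowered in the same comparison, beside 19.6% and 5.43% of the members. With single arrays left out, 12 to 17 members were called higher. When the fit held only the 18 arrays that the rule did not use, a setting chosen after the data were seen, 29 members were called higher, against 7.1% of all probe sets. The share of the 848 others in that fit is not given here, so the 29 cannot be set beside them.

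Members raised in anac017-2 included the lactate dehydrogenase AT4G17260, which read 10.26, 9.95 and 10.07 under antimycin A and 8.44, 8.39 and 8.57 under water. The groups did not overlap, and the change was 1.63 ± 0.42 (adjusted p 0.00888, limma). The pyruvate kinase AT5G56350 read 11.4, 11.04 and 11.05 under antimycin A and 10.56, 10.47 and 10.5 under water, a change of 0.65 ± 0.17 (adjusted p 0.0108, limma) with no overlap. AT4G37900, a glycine-rich domain protein, rose by 1.44 ± 0.33, with 5.13, 4.29 and 4.38 under antimycin A and 3.33, 2.88 and 3.26 under water. All arrays of the first group again lay above those of the second.

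The member with the lowest p among those raised was 247176_at, at 10.26, 9.81 and 10.26 under antimycin A and 8.59, 8.49 and 8.72 under water, a change of 1.51 ± 0.25 (adjusted p 0.000185, limma). AT4G33666, at 9.41, 9.56 and 10.58 under antimycin A and 6.54, 7.52 and 6.72 under water, had the widest change of those called, 2.92 ± 0.49. Neither pair of groups overlapped. Next by p came 266217_at, with 5.2, 3.83 and 5.2 under antimycin A and 2.89, 2.43 and 2.49 under water, and 260847_s_at, with 12.41, 12.4 and 12.41 under antimycin A and 11.58, 11.82 and 11.65 under water. AT4G16680 read 4.66, 3.95 and 5.47 under antimycin A and was low on all water arrays (2.29, 2.31 and 2.33), so its change was at least 2.20 (adjusted p 0.0016, limma). The probe set 259976_at read 7.56, 7.24 and 8.32 under antimycin A and 6.59, 6.58 and 6.31 under water. In each of these the antimycin A arrays were all above the water arrays. The other raised members were AT1G03660, AT5G40690, AT3G03870, AT1G54120, 264460_at, 255941_at, 258507_at, 253824_at and 255794_at, with changes between 0.50 and 2.32.

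The 5 members that fell in anac017-2 included the small heat shock protein AT1G54050 and the glycosyltransferase UGT76E12. AT1G54050 read 8.28, 7.65 and 7.95 under antimycin A and 10.13, 10.63 and 11.37 under water, a change of -2.75 ± 0.32 (adjusted p 4.89e-06, limma). The probe set 250351_at read 6.85, 3.86 and 3.76 under antimycin A and 9.33, 10.12 and 10.91 under water, a change of -5.30 ± 0.57 (adjusted p 1.39e-06, limma). Both lay below water on every array, in a line whose water level of both was above that of wild type. UGT76E12 read 2.61, 2.05 and 3.96 under antimycin A and 4.3, 5.74 and 5.11 under water (-2.18 ± 0.73, adjusted p 0.0419, limma). For 265199_s_at the values were 2.29, 5.2 and 5.26 under antimycin A and 6.77, 7.34 and 6.45 under water, and for 247431_at they were 2.3, 4.02 and 4.22 under antimycin A and 4.44, 5.28 and 6.11 under water. These 3 also lay below water on every array, but each lost its call without anac017-2 antimycin A replicate 1, with adjusted p 0.117 for UGT76E12, 0.184 for 265199_s_at and 0.235 for 247431_at. Each water array also removed the call of 1 or more of these 3 when left out. The count of 5 was 3 without antimycin A replicate 1 and 2 without water replicate 2.

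Hydrogen peroxide against water in anac017-2 raised 9 members (9.78%, against 4.18% of all probe sets) and lowered 0 (4.84% of all probe sets, with 0 members lower at an unadjusted p under 0.05 in limma, and 1 with array weights). Of the 848 other induced probe sets 94 (11.1%) were raised and 11 (1.3%) lowered in this comparison. The widest change was that of 253884_at, with 7.14, 6.54 and 7.24 under hydrogen peroxide and 2.6, 2.16 and 2.68 under water (4.50 ± 0.61, adjusted p 0.000101, limma). AT1G54050 read 12.04, 11.54 and 12.58 under hydrogen peroxide and rose by 1.34 ± 0.32 over water (adjusted p 0.0096, limma). In both, no hydrogen peroxide array fell into the water range. AT4G33666 read 10.06, 8.61 and 8.8 under hydrogen peroxide (2.23 ± 0.49), 255941_at read 6.07, 6.65 and 6.5 against 4.83, 4.87 and 4.43 under water, and 267026_at read 3.94, 4.16 and 4.96 against 2.79, 2.3 and 2.78 under water. The probe set 247176_at read 9.35, 9.96 and 9.63, all above its water values. SBT3.5, AT1G14200 and 250351_at made up the 9, with changes of 1.42, 2.39 and 2.35. Without anac017-2 water replicate 1 the count was 5 and AT1G54050 had an adjusted p of 0.0712 (limma), and without hydrogen peroxide replicate 3 it had 0.0502. The call of 247176_at was lost without hydrogen peroxide replicate 2 (adjusted p 0.0619, limma).

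Antimycin A and hydrogen peroxide were compared directly in anac017-2. Under antimycin A, 4 members were higher (4.35%, against 2.18% of all probe sets) and 6 lower (6.52%, against 3.04%). Of the 848 other induced probe sets 38 (4.48%) were higher and 43 (5.07%) lower. The higher members were AT4G37900, whose hydrogen peroxide values were 2.98, 3.1 and 2.99 (1.58 ± 0.33, adjusted p 0.00452, limma), and 266217_at, low on all hydrogen peroxide arrays (2.45, 2.51 and 2.5), with a difference of at least 2.22. The others were 253824_at, with 8.52, 8.48 and 8.64 under antimycin A against 8, 7.84 and 8.21 under hydrogen peroxide, and 255794_at, with 8.22, 8.07 and 8.19 against 7.22, 7.44 and 7.07. None of these pairs of groups overlapped. Without rao2 antimycin A replicate 1, an array outside this comparison that enters the shared variance, 13 members were called higher, with 2.28% of all probe sets called higher by the same fit. The share of the 848 others in that fit is not given here.

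Among the 6 members lower under antimycin A were AT1G54050 (-4.09 ± 0.32, adjusted p 3.85e-09, limma) and 250351_at, whose hydrogen peroxide values were 12.43, 12.08 and 12.9 (-7.65 ± 0.57, adjusted p 1.94e-09, limma). The probe set 253884_at was low on all antimycin A arrays (2.14, 2.18 and 2.12), so its difference was at least 4.47 in size. For 247431_at the hydrogen peroxide values were 5.74, 6.69 and 7.17, and for 267026_at the antimycin A values were 2.79, 2.68 and 1.98. All of these lay lower under antimycin A on every array. The protease SBT3.5 read 6.77, 6.37 and 7.78 under antimycin A and 7.75, 8.99 and 8.23 under hydrogen peroxide (-1.35 ± 0.38, adjusted p 0.0357, limma), with overlapping groups, and lost its call without antimycin A replicate 1 or 2 or hydrogen peroxide replicate 2 or 3 (adjusted p 0.0815 to 0.196, limma). Without hydrogen peroxide replicate 3 the calls of 255794_at (adjusted p 0.0609, limma) and 267026_at (0.0502) were lost too.

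**Figure D4:**
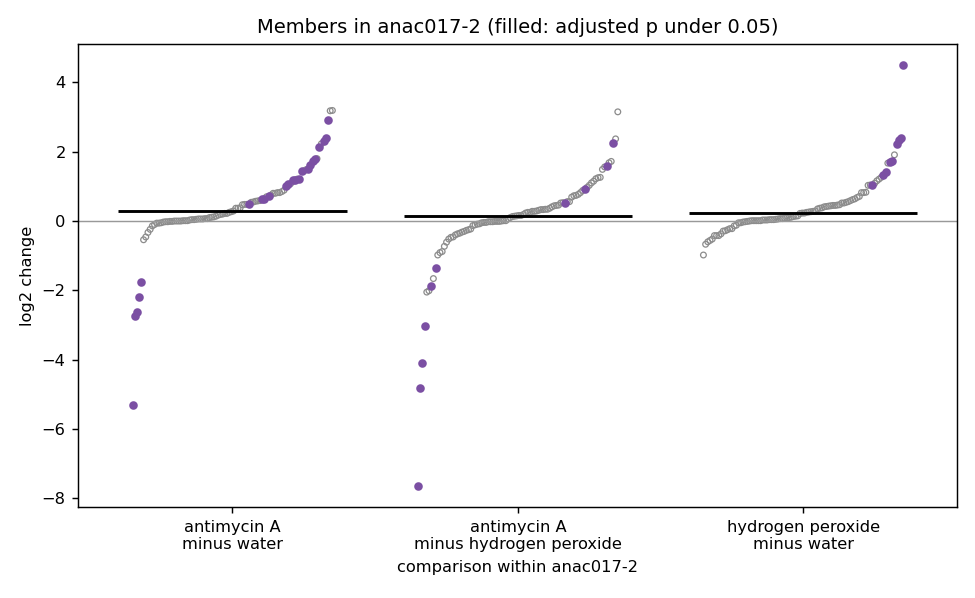
Log2 changes of the 92 members in anac017-2 in the 3 comparisons, in order of size, with filled points for an adjusted p under 0.05 and bars at the medians of 0.28, 0.16 and 0.23. Filled points lie on both sides of 0 in the comparisons of antimycin A, 18 and 5 against water and 4 and 6 against hydrogen peroxide, and above 0 only, 9 points, for hydrogen peroxide against water.

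Under hydrogen peroxide the mutants were compared with wild type on arrays that had no part in the choice of members. In rao2, 16 of 92 members were lower than in wild type (17.4%, against 1.5% of all probe sets) and 0 were higher (1.54% of all probe sets, with 0 members higher at an unadjusted p under 0.05 in limma). In anac017-1, 11 were lower (12%, against 1.97%) and 0 higher (4.26%, also 0 unadjusted). In anac017-2, 1 was lower (1.09%, against 0.0967%) and 0 higher (0.0923%, with 5 unadjusted). The median difference of the members was -0.53, -0.55 and -0.08 in these lines, beside 0, 0.02 and 0.03 over all probe sets. Among the 848 other induced probe sets 36 (4.25%) were lower in rao2, 71 (8.37%) in anac017-1 and 3 (0.354%) in anac017-2. The 3 comparisons share the wild type hydrogen peroxide arrays. Some members called in rao2 were below wild type under water too, on every array. The water difference was -1.77 for 263231_at, -1.34 for AT1G24095, -1.11 for 245173_at and -0.93 for AT1G74870. It was -0.68 for AT2G35480, -0.38 for 253890_s_at and -0.2 for AT5G56350. The other called members overlapped wild type under water, with higher rao2 means for UGT76E12 (0.33) and AT3G03680 (0.24). How far the hydrogen peroxide differences exceed these was not tested.

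The counts of members called under hydrogen peroxide moved with single arrays. In rao2 the count of 16 was 8 without wild type hydrogen peroxide replicate 1, 9 without replicate 2 and 8 without rao2 hydrogen peroxide replicate 2. In anac017-1 the count of 11 was 6 without that wild type replicate 1, 7 without replicate 2 and 5 without anac017-1 replicate 2. Of the calls in anac017-1, that of AT5G56350 was lost without wild type replicate 1 (adjusted p 0.0667, limma) or anac017-1 replicate 2 (0.0604), and that of 255941_at without wild type replicate 2 or anac017-1 replicate 1 or 2 (0.0515 to 0.0907). The call in anac017-2 was lost without any 1 of the 3 wild type arrays or without anac017-2 replicate 3. Whether the differences from wild type differ between the mutants was not tested.

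Of the members lower in rao2, the probe set 263231_at read 6.61, 6.94 and 7.01 in rao2, 9.61, 9.36 and 9.91 in anac017-1, 11.97, 11.46 and 12.36 in anac017-2 and 12.3, 12.12 and 11.18 in wild type. All rao2 and anac017-1 arrays lay below all wild type arrays, with differences of -5.01 ± 0.60 in rao2 (adjusted p 2.47e-05, limma) and -2.24 ± 0.60 in anac017-1 (adjusted p 0.0224, limma). The probe set 245173_at read 2.81, 2.29 and 2.28 in rao2, 3.43, 2.33 and 4.08 in anac017-1, 7.06, 6.6 and 7.1 in anac017-2 and 8.4, 7.86 and 6.92 in wild type. It was lower by 5.27 ± 0.89 in rao2, where 2 of 3 values were low, and by 4.44 ± 0.89 in anac017-1. In anac017-2 the values overlapped wild type.

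The pyruvate kinase AT5G56350 read 10.12, 9.78 and 9.67 in rao2, 10.12, 10.06 and 10.37 in anac017-1, 10.71, 11.04 and 10.9 in anac017-2 and 11.08, 10.93 and 10.68 in wild type. It was lower in rao2 (-1.04 ± 0.17, adjusted p 0.00114, limma) and in anac017-1 (-0.71 ± 0.17, adjusted p 0.0105, limma), with no overlap, whereas anac017-2 overlapped wild type. UGT73C1 read 5.99, 3.32 and 6.36 in rao2, 7.32, 7.1 and 6.23 in anac017-1, 9.42, 8.05 and 10.25 in anac017-2 and 8.65, 9.05 and 7.71 in wild type. It was lower in rao2 by 3.25 ± 0.60 (adjusted p 0.00293, limma). Its anac017-1 arrays also lay below all wild type arrays, but the difference of -1.59 ± 0.60 did not pass the test there (adjusted p 0.133, limma).

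The probe set 259937_s_at read 5.88, 5.26 and 5.65 in rao2, 6.13, 6.2 and 6.31 in anac017-1 and 7.51, 7.24 and 6.57 in wild type, and 267026_at read 4.13, 3.51 and 3.27 in rao2, 2.89, 2.83 and 3.24 in anac017-1 and 5.44, 6.68 and 5.51 in wild type. Both were called lower in both lines, with no overlap. AT3G03680 read 4.82, 4.71 and 5.32 in rao2, 3.99, 4.13 and 4 in anac017-1, 4.73, 4.15 and 4.71 in anac017-2 and 6.33, 6.56 and 6.12 in wild type. It was below wild type on every mutant array, by 1.39 ± 0.37, 2.29 ± 0.37 and 1.81 ± 0.37 in these lines, and was the only member called in anac017-2 (adjusted p 0.0312, limma).

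AT4G16680 was low on all arrays of rao2 (2.3, 2.22 and 2.22) and anac017-1 (2.27, 2.24 and 2.29), beside 5.61, 4.97 and 3.46 in wild type, so the difference was at least 2.20 in size in rao2 and at least 2.18 in anac017-1. In anac017-1, 255941_at read 4.13, 3.9 and 4.86 beside 5.57, 5.96 and 5.12 in wild type (-1.25 ± 0.30, adjusted p 0.0106, limma). AT5G05190 (EDR4) was lower in anac017-1 as well (-1.42 ± 0.35, adjusted p 0.0112, limma), with 5.77, 5.27 and 6.51 against 7.52, 6.86 and 7.44 in wild type. In rao2 further calls were AT1G74870 (-3.88), UGT76E12 (-2.90), AT1G24095 (-1.78) and AT2G35480 (-1.75), with 266606_at, 253890_s_at, 264460_at and 260847_s_at between -3.14 and -0.65. The probe sets 264460_at and 260847_s_at were called lower in anac017-1 too, by -1.41 and -0.60.

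**Figure D5:**
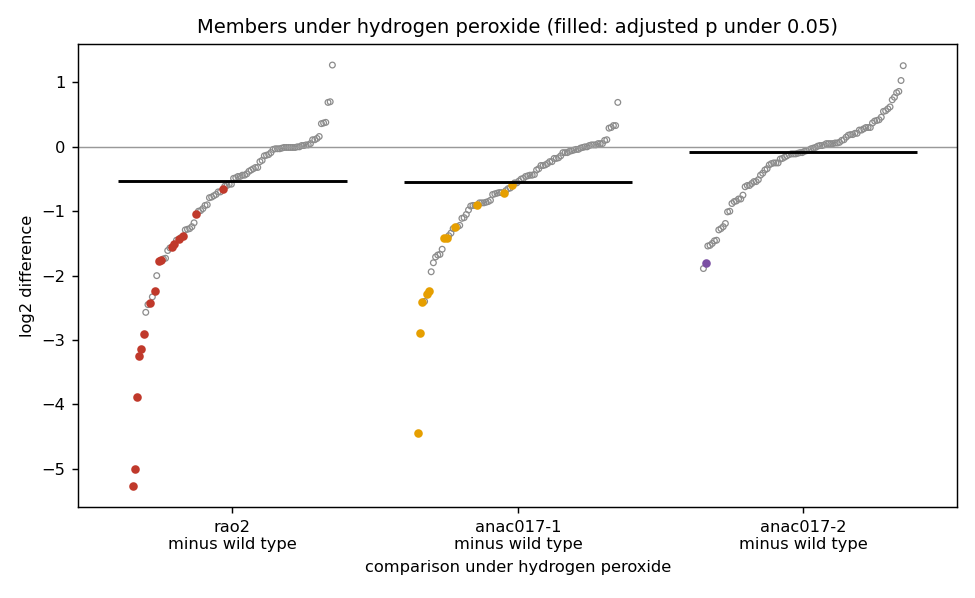
Log2 differences of the 92 members between each mutant and wild type under hydrogen peroxide, in order of size, with filled points for an adjusted p under 0.05 and bars at the medians of -0.53, -0.55 and -0.08. The 16 filled points of rao2 and the 11 of anac017-1 lie below 0, and anac017-2 has 1.

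Set against water, hydrogen peroxide raised the mean of 12 members by at least 1 in rao2 (2.04% of all probe sets), of 8 in anac017-1 (0.866%) and of 45 in wild type (2.89%). The water arrays of these lines were used by the rule, so these counts have no test. For 253884_at the rise was at least 4.52 in rao2, at least 3.97 in anac017-1, 4.50 in anac017-2 and at least 5.27 in wild type, since its water arrays were all low except in anac017-2. For AT1G54050 it was 3.06, 1.97, 1.34 and 4.45 in the same lines. Both had higher means under hydrogen peroxide than under water in every line. For AT4G17260 the change was -0.03 in rao2, 0.29 in anac017-1, 0.52 in anac017-2 and 1.25 in wild type. Other members stayed near their water level under hydrogen peroxide in all lines, among them AT3G54520 (-0.02, 0.06, 0.01 and -0.03) and AT5G59530 (0.06, 0.03, 0.06 and 0.04).

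Under water, anac017-2 held some members above wild type. The water mean was at least 1 above wild type for 4 members in rao2 (0.572% of all probe sets), 7 in anac017-1 (1.91%) and 19 in anac017-2 (0.761%). The wild type water arrays were used by the rule, which picks members with low wild type water values, so these counts have no test. In rao2 the water mean was lower than in wild type for 263231_at (-1.77), AT1G24095 (-1.34) and 245173_at (-1.11). UGT73C1 read 9.62, 9.81 and 9.38 in anac017-2 water and 6.04, 7.17 and 6.66 in wild type water, with no overlap and a difference of 2.98 ± 0.60. AT2G35480 read 9.21, 8.87 and 9.17 in anac017-2 and 6.49, 7.08 and 6.54 in wild type. The probe set 264460_at read 9.83, 10 and 10.15 in anac017-2 and 7.82, 7.91 and 7.92 in wild type. In all 3 the anac017-2 arrays were higher throughout, and UGT73C1 then changed by -0.03 ± 0.60 under antimycin A in that line. All 3 anac017-2 water arrays lay above all 3 wild type water arrays for 33 of the 92 (8.93% of all probe sets). The rule used these wild type arrays too, so nothing is read from this count.

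The best known genes of this response are not among the members. Of 18 loci of the mitochondrial dysfunction stimulon, a list written from general knowledge, 11 had a probe set in the gene table. All 11 were on the list of loci and gene families left out by name, so the count of 0 members was fixed in advance. Of the 11, 5 met the numerical rule (AT5G09570, NDB2, AT2G21640, NDB4 and AT2G32020). Under hydrogen peroxide 7 of the 11 were lower in rao2 than in wild type (1.5% of all probe sets), 4 in anac017-1 (1.97%) and 0 in anac017-2 (0.0967%). In each of these lines 0 of the 11 were higher, beside 1.54%, 4.26% and 0.0923% of all probe sets. Antimycin A raised 3 of the 11 over water in anac017-2, where 6.9% of all probe sets rose (AT2G32020 by 4.26 ± 0.71, AT5G43450 by 1.57 ± 0.39 and NDB4 by 1.04 ± 0.28). It lowered 0 of the 11, beside 8.39% of all probe sets.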

How the data were processed

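The deposited values are intensities per probe set, on a linear scale, already normalized by the authors. Per the submitters' processing notes, RMA and GCRMA were used. Neither has a version there, and the method behind these intensity values is not given in the sources used here. Here 64 control probe sets were left out and log2 was taken with no pseudocount. Each of the 12 groups of 3 arrays had its own mean in 1 limma fit over 36 arrays (R 4.3.3, limma 3.58.1; 24 residual and 1.28 prior degrees of freedom). P-values were adjusted by Benjamini-Hochberg over 22746 probe sets in each comparison, with a threshold of 0.05. The fit was tested on simulated data. The 6 comparisons tested use only the 18 arrays that took no part in the choice of members, although the other arrays enter the variance.

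Values that did not exceed the 25% quantile of their array were treated as not above background. Where all 3 arrays of 1 group were so, the difference is a bound, with those values raised to the quartile. Values of every array are given for the 10 members with the largest measured wild type change, the 6 with the largest bound and up to 6 called members per direction and comparison with the lowest p. The 3 probe sets on each side of a threshold are given by their group changes. The members and lists were chosen with earlier results of these data known. Roles are background knowledge assigned after values were known, since the gene tables hold no descriptions, and promoter motifs were not analysed here. Alternatives were a replicate block, quantile normalization, raised low values, a filter on dim probe sets, array weights, a variance trend, fits of 2 groups and leaving out single arrays, plus 2 fits chosen after the data were seen.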

Additional observations from a re-analysis of the deposited data

Results flagged for a closer look

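For some members every mutant array under a spray lay below every water array of that mutant, while in wild type every sprayed array lay above every water array. This held for 9 members in anac017-1 and 6 in anac017-2 under antimycin A, and for 5 in rao2 under hydrogen peroxide. With those low on 2 or more arrays of both groups of the mutant or of wild type left out, 7, 6 and 4 remain and are given here, beside 0.273%, 1.94% and 0.127% of all probe sets under the same conditions. For the other combinations of line and spray the count was 0 members. In anac017-2 under antimycin A, 8.25% of the 848 other probe sets that the rule counted as induced in wild type showed the same pattern. In each case the difference between the lines was not tested. Under antimycin A in anac017-1 the changes were -1.68 for AT1G74870 (6.17 in wild type), -0.65 for AT2G35480 (3.89), -0.91 for 253890_s_at (2.86), -0.8 for 251776_at (2.38), -0.31 for AT5G56350 (2.21), -1.89 for AT1G54120 (2.14) and -0.47 for AT4G17080 (2.04).

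Under antimycin A in anac017-2 the changes were -2.61 for 265199_s_at (4.96 in wild type), -2.18 for UGT76E12 (4.02), -5.3 for 250351_at (3.95), -1.76 for 247431_at (2.48), -2.75 for AT1G54050 (2.43) and -0.54 for AT3G03680 (2.16). Under hydrogen peroxide in rao2 they were -1.15 for AT1G74870 (1.8 in wild type), -1.23 for 263231_at (2.02), -0.48 for UGT76E12 (2.75) and -0.22 for 253890_s_at (0.83). The antimycin A changes of wild type and anac017-1 were also used to choose the members.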

How the results depend on the processing

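None of the 40 values named in the 6 tested comparisons changed sign under the alternatives run, but many lost their call. With the arrays of the 2 groups only, 23 of the 40 were no longer called and 17 were. With single arrays left out, 28 results for named members lost their call and 212 kept it. Outside them, the rao2 antimycin A change turned below 0 for 14 members and above 0 for 1 without rao2 antimycin A replicate 1. With array weights, 30 members were higher under antimycin A than water in anac017-2 (12.8% of all probe sets), 1 was lower under hydrogen peroxide than water there (6.72%), and 32 in rao2 (4.25%) and 27 in anac017-1 (6.35%) were lower than in wild type under hydrogen peroxide. With the arrays of the 2 groups only, antimycin A against water gave 29 higher (7.68%) and 2 lower (10.3%), antimycin A against hydrogen peroxide 1 higher (0.0484%) and 2 lower (0.136%), and hydrogen peroxide against water 3 higher (0.783%), while 3 in rao2 (0.0923%) and 0 in anac017-2 (0.0044%) were lower than in wild type. Of the fits chosen after the data were seen, that without rao2 antimycin A replicate 1 gave 13 higher under antimycin A than hydrogen peroxide (2.28%), 23 lower in rao2 (1.58%), 17 lower in anac017-1 (2.01%) and 1 higher in anac017-2 (0.114%) than in wild type, and that on the 18 arrays outside the rule gave 29 higher under antimycin A than water (7.1%), 8 higher than under hydrogen peroxide (2.04%), 19 lower in anac017-1 (2.1%) and 1 higher in anac017-2 (0.0615%). Why these counts differ was not tested. With single arrays left out, antimycin A against water gave 12 to 17 higher and 2 to 5 lower, antimycin A against hydrogen peroxide 3 to 6 and 4 to 6, and hydrogen peroxide against water 5 to 10 and 0 to 0. Against wild type the lower counts were 8 to 18 in rao2, 5 to 12 in anac017-1 and 0 to 1 in anac017-2, with 0 to 0 higher in each, and the rule found 83 to 119 members. For the fits without single arrays, the shares of all probe sets called are not given here. With the replicate number as a block the counts were 19 and 5, 4 and 6, 10 and 0, 0 and 18, 0 and 11, and 0 and 1 (higher and lower, in the order of the comparisons above). In the same order, the shares of all probe sets were 7.21% and 8.8%, 2.28% and 3.2%, 4.38% and 5.11%, 1.7% and 1.6%, 4.29% and 2.1%, and 0.11% and 0.123%. Same-numbered arrays correlated between -0.33 and 0.27. For hydrogen peroxide against water in anac017-2 they correlated at 0.27, 0.08 and 0.08, each highest with its own number. In every other tested comparison most or all arrays were not highest with their own number. The labels give the numbers no meaning, and no pairing is read from these values.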
